A study of Rattus norvegicus with 6 samples.

Results

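The Kruppel-like factors (Klf) are a family of transcription factors, and 9 of their genes, Klf2, Klf3, Klf4, Klf5, Klf6, Klf9, Klf10, Klf13 and Klf15, were examined here in rat myocardium. They were chosen by family membership and by gene name, and each had 1 row among the 32623 genes of the deposited table, which lists 17 Klf genes in all. RNA was sequenced from 3 sham samples and 3 samples with ischemia, produced by tying the left anterior descending coronary artery, and the titles of both groups carry 30 min. All animals were described as wild-type males, and a thoracotomy is described for the procedure. Age and strain are not given in the sources used here. Each sample came from bulk myocardial tissue, so that fewer cells of a type and less RNA per cell cannot be told apart.

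Kruppel-like factors bind GC-rich and CACCC sequences in DNA through zinc fingers at the carboxy-terminal end, and the remainder of the protein decides whether a target is activated or repressed. Klf2 and Klf4 are known as flow-responsive factors of the endothelium, where they maintain anticoagulant and anti-inflammatory genes. Klf5 and Klf6 are mostly activators and are known from tissue injury. Klf3 represses through the CtBP proteins, whereas Klf9, Klf10 and Klf13 belong to a branch that recruits Sin3 co-repressors. Klf15 is best known in the heart as a regulator of lipid, glucose and amino acid use in cardiomyocytes and as a target of the glucocorticoid receptor.

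Total counts per sample ranged from 68529126 to 79591989. Each member had at least 56 counts in every sample, and all 9 passed the filter of a mean FPKM of at least 0.5, where FPKM is the fragment count scaled to gene length and library size. Several features set libraries apart. Although the rats were described as male, sham replicate 1 had 26 counts summed over 3 Y-linked genes, while the remaining 5 libraries had 1772 to 4318. The summed FPKM of 4 atrial markers reached 48341 for sham replicate 1 and 39203 for sham replicate 3, but 214.9 for sham replicate 2, with 1279 to 9610 among the ischemia libraries. The summed FPKM of 6 cardiomyocyte markers, among them Tnnt2 and Actn2, was 14108 to 21593 in sham and 5940 to 14291 in ischemia, which places cardiac muscle in every library. The summed FPKM of 10 neutrophil and monocyte markers separated the groups, with 9.33 to 19.9 in sham and 508.8 to 4025 in the ischemia samples, whose titles give 30 min, and all 9 tested markers of that list rose. The part of these differences in the values below was not tested, except where a ratio to marker genes is given.

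The question was how the Kruppel-like factors changed after coronary ligation. Klf10 was the 1 member of 9 that rose, with a 3.30-fold higher level in ischemia, and no member fell. Klf2 and Klf4 were higher, and Klf15 lower, in every ischemia sample than in every sham sample, but none of these 3 genes passed the test. Klf6 and Klf5 were high mainly in ischemia replicate 2, and Klf3, Klf9 and Klf13 overlapped between the groups with mean levels that were close to each other. With the edgeR quasi-likelihood test and Benjamini-Hochberg adjustment over 13964 genes, 1 of 9 members (11.1%) passed an adjusted p-value of 0.05. The same test called 6.71% of all genes, 5.18% as higher and 1.53% as lower, and the share of members was near this background. At an unadjusted p under 0.05 in edgeR, which 32.4% of all genes reached (18.2% higher and 14.2% lower), 4 members were higher and 1 was lower. DESeq2 called 2 members higher and 0 lower, against 14.8% and 12.5% of all genes. With limma on log2(FPKM + 0.1), 1 member was higher and 0 were lower, against 6.09% and 1.88%. Groups did not overlap for 3 members in the higher direction (33.3%) and 1 in the lower direction (11.1%), against 23.6% and 15.0% of all tested genes. The median log2 fold change was 0.43 over the members and -0.0015 over all tested genes. No member reached the log2 fold change of 2 with p under 0.01 that the study applied when selecting rising genes of the MAPK pathway. In edgeR 462 of 13964 genes reached it as higher and 187 as lower, so 0 of 9 members says little about the family. No label says that the replicates are separate animals, so the p-values measure only the spread between these 3 samples a group, and the exact permutation test of a single gene cannot give a p below 0.1 in this design.

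**Figure D1:**
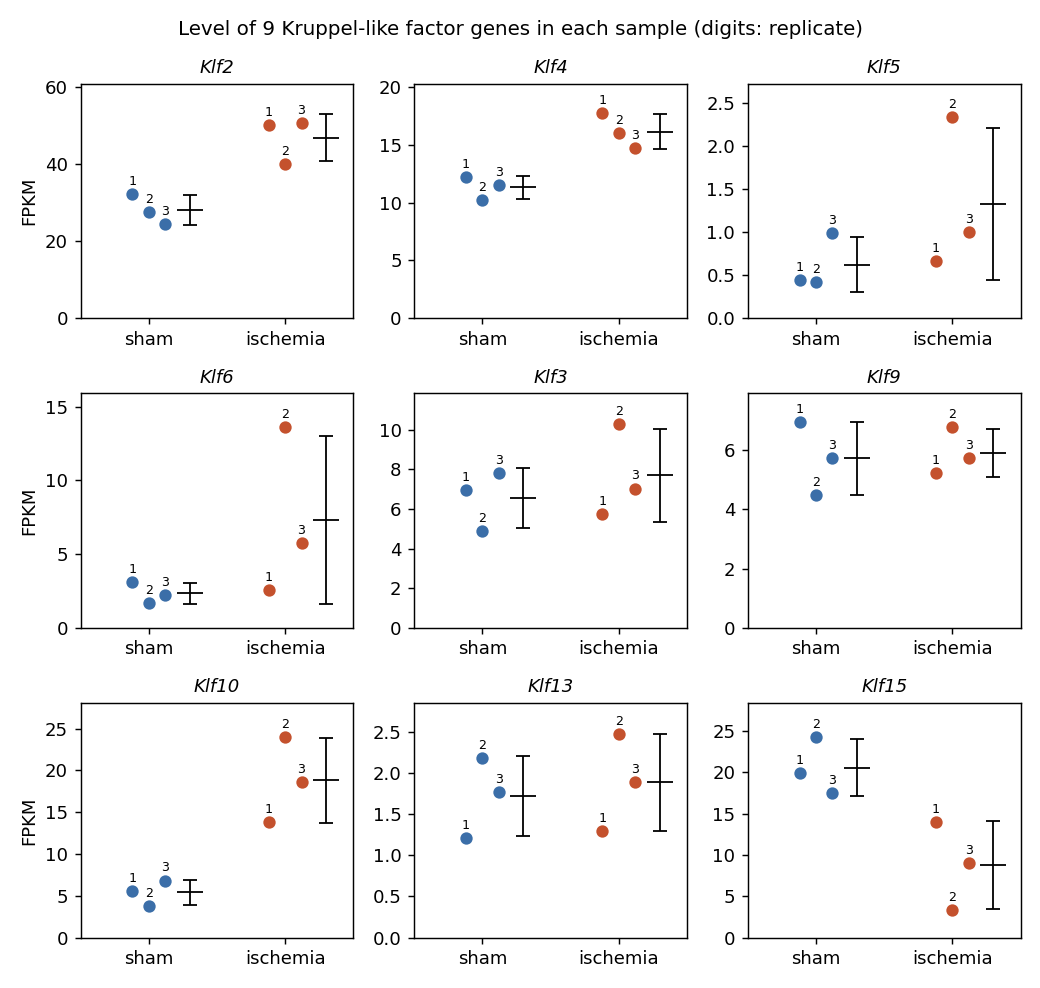
FPKM (y axis, from 0) of each member in the 3 sham samples (blue) and the 3 ischemia samples (red); digits are replicate numbers, and the black cross lines give mean and SD. Klf2, Klf4 and Klf10 lay above sham and Klf15 below sham in each ischemia sample, and the highest points of Klf5 and Klf6 belong to ischemia replicate 2.

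Klf10, first described as a gene induced early by transforming growth factor beta, occupies positions 77156006 to 77162148 of chromosome 7 (minus strand) in the coordinates of the deposited table. Sham replicates 1, 2 and 3 had FPKM values of 5.61, 3.83 and 6.84, and the ischemia replicates, in the same order, had 13.8, 24.0 and 18.6. The lowest ischemia sample thus exceeded the highest sham sample. These levels came from 930 to 1485 raw counts per sham sample and 3406 to 5393 per ischemia sample. Mean FPKM stood at 5.42 ± 1.51 for sham and at 18.8 ± 5.11 for ischemia (SD, n = 3 each). This gave a log2 fold change of 1.72 ± 0.25 (SE), and the gene passed edgeR at an adjusted p of 0.0291. The size of the difference depended little on single samples, from 1.57 to 1.88 on the log2 scale when each sample was left out, whereas the call did. Klf10 no longer passed without sham replicate 1 (edgeR adjusted p 0.158), sham replicate 2 (0.0820), sham replicate 3 (0.125) or ischemia replicate 3 (0.113). Each of these fits called 0 of 13964 genes, so no gene kept a call there. The loss is therefore not particular to Klf10.

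Klf9 and Klf13 stand in the same branch of the family as Klf10. Klf9, a gene that responds to glucocorticoid and thyroid hormone, had an FPKM of 6.94, 4.50 and 5.73 in sham and 5.21, 6.80 and 5.72 in ischemia. Values of both groups were interleaved, with a log2 fold change of -0.031 ± 0.19 (SE; edgeR adjusted p 0.923), and its sign turned with total-count but not with median-ratio scaling, and without sham replicate 1 or ischemia replicate 1. Klf13, which takes part in heart development, was the member with the fewest counts, 56 to 107 in sham and 65 to 112 in ischemia. Its FPKM was 1.21, 2.18 and 1.77 in sham and 1.29, 2.47 and 1.89 in ischemia, again interleaved. The log2 fold change of -0.0056 ± 0.45 (SE; edgeR adjusted p 0.994) also turned sign with total-count but not with median-ratio scaling, and its error would leave changes of moderate size undetected. The ratio of counts to FPKM corresponds to a gene length of about 0.627 kb for Klf13 against 3.10 kb for Klf10, so the level of Klf13 rests on a short gene model.

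Klf15 had the lowest log2 fold change of the members. It occupies positions 122365093 to 122377659 of chromosome 4 (plus strand). The FPKM of Klf15 was 19.9, 24.3 and 17.5 in sham and 13.9, 3.31 and 9.02 in ischemia. Every ischemia sample was below every sham sample, and ischemia replicate 2 was the lowest. Behind these values were 3076 to 4774 counts per sham sample and 604 to 2791 per ischemia sample. The mean FPKM was 20.6 ± 3.44 (SD, n = 3) against 8.76 ± 5.32 (SD, n = 3). Klf15 had a log2 fold change of -1.32 ± 0.54 (SE). In edgeR its unadjusted p was 0.0492 and its adjusted p 0.153, and the exact permutation p was 0.1. Without ischemia replicate 2 the log2 fold change was -0.92, and without ischemia replicate 1 it was -1.82. Since Klf15 is a gene of cardiomyocytes and their markers were lower in ischemia replicate 2, its level was also set against the summed FPKM of the 6 cardiomyocyte markers, a ratio added after the data were seen. Klf15 was 0.126%, 0.112% and 0.124% of that sum in sham and 0.0976%, 0.0558% and 0.0788% in ischemia. Both groups remained apart on this scale, with a sham mean 1.56 times the ischemia mean, against 2.35 times for FPKM itself. The ratio depends on the markers in the sum, whose log2 fold changes were unequal. They ran from -2.38 for Myh6 and -1.51 for Ryr2 to -0.43 for Tnnt2 and -0.38 for Myl2. Myh6 alone had a mean FPKM of 4340 in sham and 883 in ischemia. The ratio of Klf15 without single markers was not tested.

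The promoter windows of members were read from RefSeq (GRCr8), which gave 250 bases before and 50 bases after a gene start for 6 of the 9 members, and Klf2, Klf10 and Klf13 were not matched. Klf15 is shown as the member with the lowest log2 fold change. Klf6 is shown as the matched member with the highest log2 fold change, a choice made after its values were seen. In Klf15 (chr4:124522765-124523064, plus strand) capitals mark the motif TGACG on either strand, the core of the element bound by cyclic AMP responsive factors. In Klf6 (chr17:69458429-69458728, minus strand) capitals mark a CArG box, the element bound by serum response factor.
Klf15: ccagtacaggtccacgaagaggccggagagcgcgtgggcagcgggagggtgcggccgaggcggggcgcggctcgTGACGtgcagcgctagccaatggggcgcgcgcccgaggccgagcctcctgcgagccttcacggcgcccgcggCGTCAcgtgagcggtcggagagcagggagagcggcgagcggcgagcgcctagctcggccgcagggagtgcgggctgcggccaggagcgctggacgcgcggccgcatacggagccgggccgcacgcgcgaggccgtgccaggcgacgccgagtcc
Klf6: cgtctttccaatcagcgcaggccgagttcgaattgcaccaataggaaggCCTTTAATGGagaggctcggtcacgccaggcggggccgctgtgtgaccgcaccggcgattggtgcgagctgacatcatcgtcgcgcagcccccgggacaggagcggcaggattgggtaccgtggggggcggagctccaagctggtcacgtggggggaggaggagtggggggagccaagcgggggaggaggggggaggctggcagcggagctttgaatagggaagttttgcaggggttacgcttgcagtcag
The Klf15 window held 2 matches of TGACG, 176 and 104 bases before the gene start as counted to the first base of the match, and 3 of the 6 member windows held at least 1, against 21.2% of 33469 promoter windows of the same length. The CArG box of Klf6 began 201 bases before the start. It was found in 1 of the 6 member windows and in 1.64% of all windows. The family's own motif, CACCC on either strand, was found in 4 of 6 member windows against 54.9% of all windows, once in Klf15 and not in Klf6. The motif CCAAT on either strand was found in 5 of 6 windows against 37.5%, and GGGCGG in 2 of 6 against 33.1%. TGTTCT, a part of the glucocorticoid receptor element, was in 0 of 6 windows against 20.7%. CCAAT can lie within a CArG box, so these counts may share letters. The member windows held 45% to 77.3% G and C, against a median of 51.7% over all windows, and the shares were not matched for this. A different motif was picked for the capitals of each printed gene. These matches describe letters in the windows only.

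Klf2 and Klf4, the endothelial pair, were above sham in every ischemia sample. Klf2 (chromosome 16, 19223087 to 19225037, minus strand) had an FPKM of 32.0, 27.4 and 24.3 in sham and 49.99, 39.9 and 50.6 in ischemia. Klf4 (chromosome 5, 72283313 to 72287669, minus strand) had an FPKM of 12.2, 10.2 and 11.5 in sham and 17.7, 16.0 and 14.7 in ischemia. For neither gene did the groups overlap. The log2 fold change was 0.66 ± 0.22 (SE; edgeR adjusted p 0.108) for Klf2 and 0.43 ± 0.16 (SE; edgeR adjusted p 0.128) for Klf4. Neither passed, with an unadjusted p of 0.0238 and 0.0346, and neither passed with DESeq2 (adjusted p 0.0622 and 0.0612) or in any of the 6 fits that left out 1 sample. The fits without a sham sample, and the fit without ischemia replicate 3, called 0 of 13964 genes. The exact permutation p was 0.1 for each.

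To set these levels against the amount of endothelium, 6 measured endothelial markers were summed. Their summed FPKM was 180.7 to 197.2 in sham and 161.8 to 215.4 in ischemia, and none of the markers passed the edgeR test. Of these markers Emcn was below sham in every ischemia sample (log2 fold change -0.52, edgeR adjusted p 0.0784). Cldn5 had 0 counts in 4 of the 6 samples and 22.7 FPKM in ischemia replicate 1, and without it the sum was 180.7 to 194.1 in sham and 161.8 to 192.7 in ischemia. With all 6 markers Klf2 was 17.7%, 13.9% and 13.4% of that sum in sham and 23.2%, 21.0% and 31.3% in ischemia. Klf4 was 6.73%, 5.20% and 6.35% in sham and 8.24%, 8.41% and 9.09% in ischemia. On this scale, added after the data were seen, both genes kept groups that did not overlap, with ischemia means 1.68 times the sham mean for Klf2 and 1.41 times for Klf4. Without Cldn5 in the sum these values were 1.73 and 1.45, again without overlap. Tie1, 1 of the markers, is itself among the genes known to be induced by Klf2 and Klf4, and without it the values were 1.74 and 1.46, also without overlap. Macrophages also express Klf4, and of 5 macrophage markers Cd68 and Cd163 rose, while C1qa was below sham in every ischemia sample without passing (log2 fold change -0.66 ± 0.15, SE; edgeR adjusted p 0.0504). The summed FPKM of that list was 123.8 to 176.5 in sham and 155.1 to 238.1 in ischemia, and its part in the level of Klf4 was not tested.

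Klf6 and Klf5, the injury-related activators, showed a different arrangement of samples. Klf6 (chromosome 17, 67887939 to 67945037, minus strand) had an FPKM of 3.10, 1.69 and 2.24 in sham and 2.54, 13.6 and 5.75 in ischemia. Ischemia replicate 1 lay within the sham range, while replicate 2 was 5.35 times replicate 1. The log2 fold change of 1.53 ± 0.56 (SE) did not pass (edgeR adjusted p 0.125). It was 0.82 without ischemia replicate 2, and 1.92 with an edgeR adjusted p of 0.0293 without ischemia replicate 1. The fit without ischemia replicate 1 called 2605 of 13964 genes, against 937 with all samples. DESeq2 also called Klf6 higher (adjusted p 0.0395). Klf5, a factor of smooth muscle growth that also acts in cardiomyocytes, had an FPKM of 0.445, 0.422 and 0.988 in sham and 0.661, 2.34 and 0.998 in ischemia. These groups overlapped, and the log2 fold change of 1.01 ± 0.55 (SE; edgeR adjusted p 0.242) became 0.42 without ischemia replicate 2. Ischemia replicate 2 was also the sample with the highest neutrophil and monocyte marker sum (4025) and the lowest cardiomyocyte marker sum (5940), and the part of either in Klf6 and Klf5 was not tested.

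Klf3, the CtBP-dependent repressor, had an FPKM of 6.97, 4.90 and 7.80 in sham and 5.76, 10.3 and 7.03 in ischemia. Both groups overlapped (log2 fold change 0.15 ± 0.23, SE; edgeR adjusted p 0.666), and without ischemia replicate 2 the sign turned to -0.053. In ischemia replicate 2, the sample with the highest Klf6, Klf5 and Klf10, Klf3, Klf9 and Klf13 also had their highest ischemia value, whereas Klf2 and Klf15 had their lowest.

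**Figure D2:**
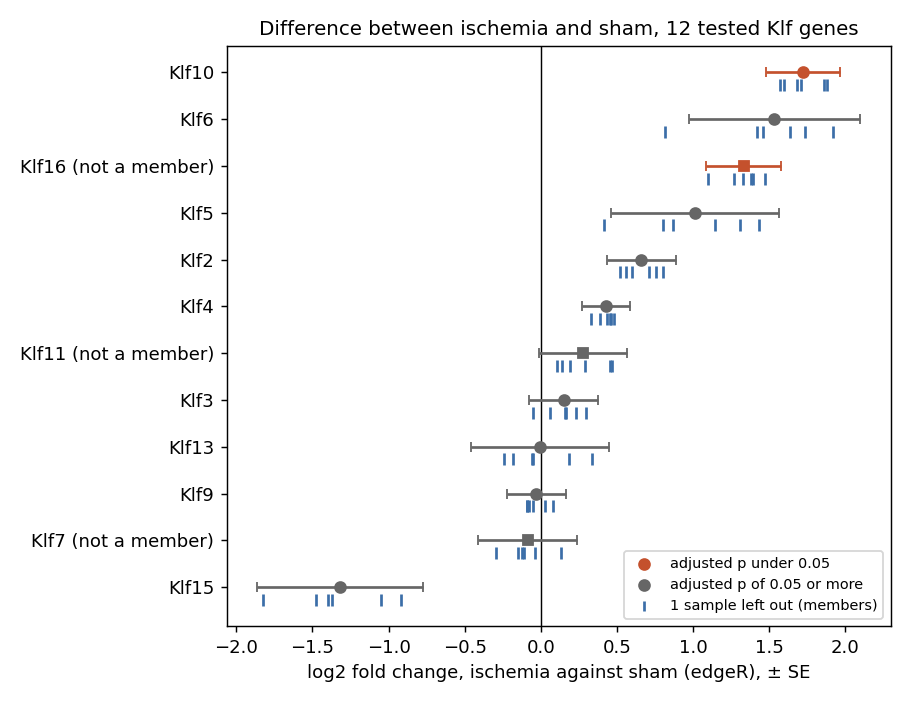
Log2 fold change of ischemia against sham (x axis) with its SE for the 12 tested Klf genes, members as circles and others as squares. Red marks an adjusted p under 0.05, and blue ticks give the value with 1 sample left out. The ticks are drawn for all 12 genes, although the legend names the members only. Klf10 and Klf16 passed, Klf15 had the lowest value, and the ticks of Klf6 ran from 0.82 to 1.92 and those of Klf15 from -1.82 to -0.92.

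The levels of the members, compared per gene length as FPKM, were ordered differently in the 2 groups. In sham the order was Klf2 (27.9), Klf15 (20.6), Klf4 (11.3), Klf3 (6.56), Klf9 (5.72), Klf10 (5.42), Klf6 (2.34), Klf13 (1.72) and Klf5 (0.618). Klf3 overlapped Klf9, Klf9 overlapped Klf10, and Klf6 overlapped Klf13, while the other neighbours were separated in all samples. In ischemia the order was Klf2 (46.8), Klf10 (18.8), Klf4 (16.2), Klf15 (8.76), Klf3 (7.70), Klf6 (7.30), Klf9 (5.91), Klf13 (1.88) and Klf5 (1.33). There Klf10 overlapped Klf4, Klf15, Klf3 and Klf6 each overlapped the next gene in that order, and Klf13 overlapped Klf5. Klf2 was the most abundant member in all 6 samples. The ratio of Klf10 to Klf15 FPKM, singled out after the values were seen, was 0.281, 0.158 and 0.391 in sham and 0.990, 7.25 and 2.06 in ischemia.

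Summed over all 17 Klf genes, FPKM was 99.2, 87.8 and 88.0 in sham and 125.1, 137.8 and 129.6 in ischemia, so every ischemia sample held more Klf transcript than every sham sample. The members made up 86.1% to 90.5% of this sum in each sample. Klf15 took 22.5% ± 4.44 (SD, n = 3) of the sum in sham and 6.84% ± 4.37 (SD, n = 3) in ischemia. Klf10 took 5.93% ± 1.72 and 14.3% ± 3.20 (SD, n = 3 each). The share of Klf4 was 12.3% ± 0.721 and 12.4% ± 1.57 (SD, n = 3 each), although its FPKM was higher in every ischemia sample. Shares sum to a whole, so that a lower share of 1 gene raises those of the others.

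**Figure D3:**
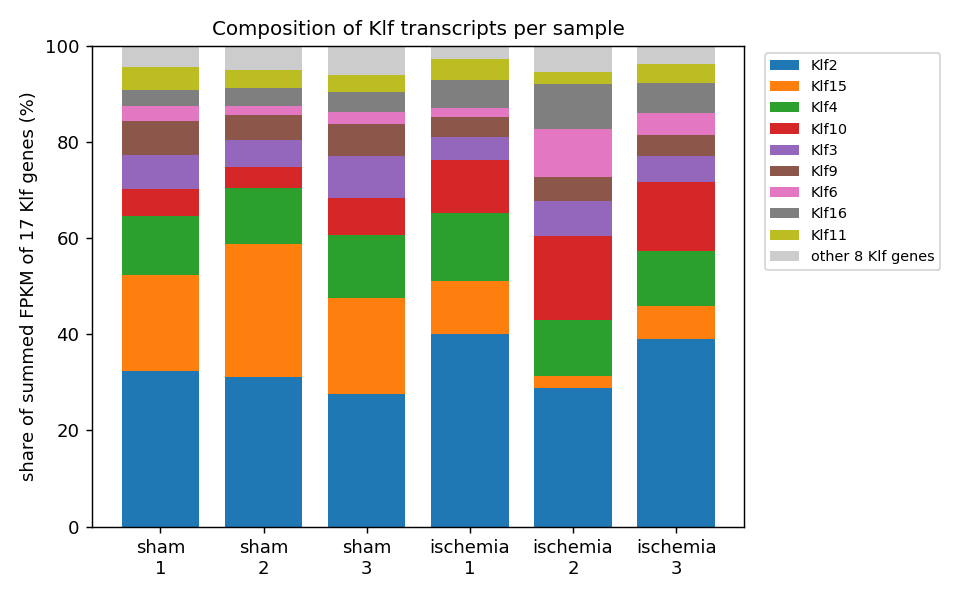
Share of each gene (y axis, percent) in the summed FPKM of the 17 Klf genes, 1 stacked bar per sample, with the 8 least abundant genes pooled in light grey. Klf15 (orange) narrowed from 22.5% to 6.84% and Klf10 (red) widened from 5.93% to 14.3% on average from sham to ischemia.

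Of the 8 Klf genes outside the members, 3 were tested and Klf16 rose. Klf16 had an FPKM of 3.39, 3.27 and 3.74 in sham and 7.10, 12.9 and 8.21 in ischemia, without overlap. Its log2 fold change was 1.33 ± 0.25 (SE; edgeR adjusted p 0.0385), and it lost the call without the same 4 samples as Klf10, with values from 1.10 to 1.47 across the fits that left out 1 sample. The fits without those samples called 0 of 13964 genes. Klf11 (0.28 ± 0.29, SE) and Klf7 (-0.088 ± 0.32, SE) did not pass, at an edgeR adjusted p of 0.526 and 0.867, and the sign of Klf7 turned with total-count scaling. Klf1, Klf8, Klf12 and Klf14 were below the filter, and Klf17 had no counts in any sample. None of the 4 tested Sp factors, the nearest relatives of the family, passed the edgeR test, with log2 fold changes from -0.95 for Sp4 to 0.84 for Sp3.

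The genes around the members were then counted in lists of known regulators, partners and targets. Upstream of Klf2 and Klf4 stand the MEK5 and ERK5 kinases, the Mef2 factors, the CCM proteins and the flow sensor Piezo1, and 0 of 10 tested genes of this list passed edgeR, with 2 at an unadjusted p under 0.05. In this and the following lists that count is to be read against the 32.4% of all tested genes, and 2 of 10 lies below it. The 2 genes were Piezo1 (log2 fold change 1.02 ± 0.24, SE; adjusted p 0.0540) and Ccm2 (0.90 ± 0.24, SE; adjusted p 0.0689), both above sham in every ischemia sample. Of the others Mef2c (-0.74, adjusted p 0.226) overlapped and Heg1, a partner of the CCM proteins (-0.46, adjusted p 0.230), was below sham in every ischemia sample. In the list 6 of 10 genes had a log2 fold change below 0, with a median of -0.36. With DESeq2 Piezo1 and Ccm2 had an adjusted p under the threshold (0.00339 and 0.0142). Among genes that Klf2 and Klf4 are known to induce in endothelium, 0 of 5 tested passed edgeR and 2 had an unadjusted p under 0.05. Nos3, the endothelial nitric oxide synthase, had a log2 fold change of 0.85 ± 0.31 (SE; edgeR adjusted p 0.122), and Thbd, the anticoagulant thrombomodulin, had 1.01 ± 0.39 (SE; edgeR adjusted p 0.139), and neither passed with DESeq2 (adjusted p 0.0688 and 0.0754). Nos3 did not overlap between the groups, whereas Thbd did. The log2 fold change of Thbd was 0.51 without ischemia replicate 2, and without ischemia replicate 1 it passed edgeR (1.30, adjusted p 0.0355). The fit without ischemia replicate 1 called 2605 genes, against 937 with all samples. Aqp1 (-0.42, adjusted p 0.466) and Tek (-0.069, adjusted p 0.812) overlapped, and the median of the list was 0.080.

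Among genes that Klf2 and Klf4 are known to restrain, the chemokine gene Ccl2 and the adhesion gene Sele rose. The monocyte chemokine Ccl2 rose by 5.92 ± 0.79 (SE) on the log2 scale, and by 5.19 without ischemia replicate 2. Sele, the endothelial adhesion molecule E-selectin, rose by 3.56 ± 0.55 (SE). In edgeR the adjusted p was 0.0278 for Ccl2 and 0.0311 for Sele, and both calls were lost without the same 4 samples as that of Klf10. The fits without those samples called 0 of 13964 genes. Vcam1, Edn1 and F3 had log2 fold changes of -0.71, 0.24 and -0.20 and did not pass (edgeR adjusted p 0.381, 0.752 and 0.787). The neutrophil and monocyte markers rose in the same samples, with a median log2 fold change of 6.33.

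**Figure D4:**
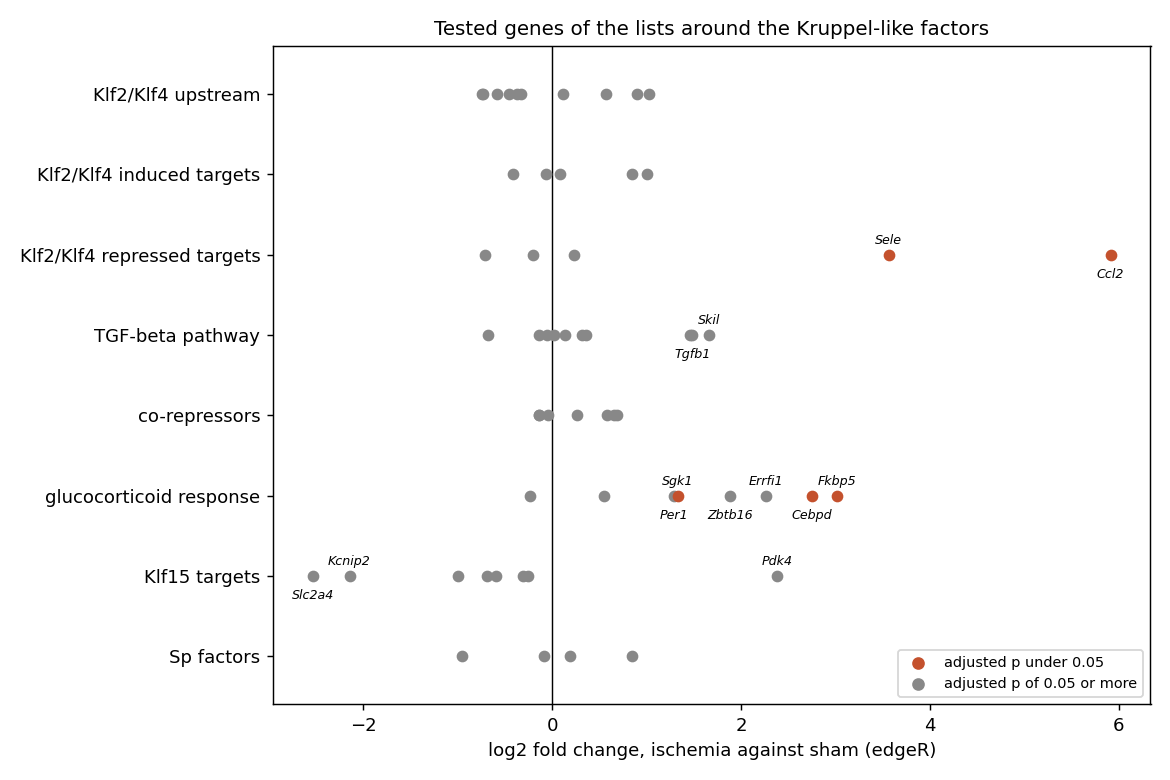
Log2 fold change of ischemia against sham (x axis) for tested genes of 8 lists of regulators, partners and targets, 1 row per list; red marks an adjusted p under 0.05 in edgeR. The called genes were Ccl2 and Sele among restrained targets of Klf2 and Klf4, and Fkbp5, Cebpd and Sgk1 in the glucocorticoid list.

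Klf15 and Klf9 are both induced by the glucocorticoid receptor, so a list of 8 other glucocorticoid-responsive genes was set beside them. Of these 3 rose and 0 fell, 6 were above sham in every ischemia sample, and the median log2 fold change was 1.61, where 5.18% of all tested genes rose and 23.6% were above sham in every ischemia sample. Fkbp5, a chaperone partner that limits the receptor, rose by 3.01 ± 0.38 (SE) and the transcription factor Cebpd by 2.75 ± 0.28 (SE). The kinase gene Sgk1 rose by 1.33 ± 0.29 (SE), a call lost under 10 of 14 alternatives, and the clock gene Per1 had 1.29 ± 0.30 (SE) without passing. In edgeR the adjusted p of these 4 genes was 0.0272, 0.0246, 0.0488 and 0.0515 in that order, and DESeq2 called 6 of the list higher, against 14.8% of all genes. Without sham replicate 1, 2 or 3 or ischemia replicate 3 none of the list passed, in fits that called 0 of 13964 genes. In the list 7 genes had a log2 fold change above 0 and 1, Tsc22d3, below 0 (-0.23 ± 0.17, SE; edgeR adjusted p 0.376), a gene named after its values were seen. Beside them Klf15 had -1.32 and Klf9 -0.031, and neither member passed.

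Of 8 measured metabolic and ion channel genes known as targets of Klf15, 0 passed edgeR and 2 had an unadjusted p under 0.05, which lay in opposite directions. Slc2a4, the insulin-sensitive glucose transporter, was below sham in every ischemia sample (log2 fold change -2.53 ± 0.67, SE; adjusted p 0.0667), and without ischemia replicate 1 it passed edgeR (-3.31, adjusted p 0.0275). The fit without ischemia replicate 1 called 2605 genes, against 937 with all samples. Pdk4, an inhibitory kinase of pyruvate dehydrogenase, was above sham in every ischemia sample (2.38 ± 0.54, SE; adjusted p 0.0511), and it passed without ischemia replicate 2 (2.78, adjusted p 0.0276). Kcnip2, a subunit of the transient outward potassium channel that Klf15 drives in a daily rhythm, had -2.15 ± 0.89 (SE) and overlapped (edgeR adjusted p 0.154). Its log2 fold change was -0.88 without sham replicate 2, which held 32915 Kcnip2 counts against 6061 and 8283 in the other sham samples. With DESeq2 Slc2a4, Pdk4 and Kcnip2 passed (adjusted p 0.000711, 0.000250 and 0.0333). In all, 7 of the 8 genes had a log2 fold change below 0, as had all 6 cardiomyocyte markers, with a median of -0.64 for the targets and -0.69 for the markers.

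In the pathway of transforming growth factor beta, to which Klf10 belongs, 0 of 10 genes passed edgeR and 2 had an unadjusted p under 0.05. The ligand gene Tgfb1 was above sham in every ischemia sample (log2 fold change 1.49 ± 0.40, SE; adjusted p 0.0703), and Skil, a feedback inhibitor of Smad signalling, had 1.66 ± 0.66 (SE; adjusted p 0.141) and 0.66 without ischemia replicate 2. With DESeq2 Tgfb1 passed (adjusted p 0.00638) and Skil did not (0.0538). Among 7 co-repressor genes that bind Klf proteins, 0 passed edgeR and 2 had an unadjusted p under 0.05, namely Ctbp2 (0.65 ± 0.21, SE; adjusted p 0.0956) and Hdac1 (0.68 ± 0.23, SE; adjusted p 0.107). DESeq2 called both (adjusted p 0.0278 and 0.0489).

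The genes with the profile most like that of the members at either end of the range were found by the root mean square difference of mean-centred log2 CPM, counts scaled to library size, over the 6 samples. For Klf10 they were Uhrf1bp1l (0.0770), LOC108348080 (0.0798) and the cyclin gene Ccnf (0.104). Their log2 fold changes were 1.69, 1.58 and 1.63 against 1.72 for Klf10. For Klf15 they were Glyctk (0.0663), a kinase of glycerate, Pdk2 (0.0817), a kinase that inhibits pyruvate dehydrogenase, and Epm2a (0.0871), the glycogen phosphatase laforin. Their log2 fold changes were -1.20, -1.28 and -1.32 against -1.32 for Klf15, and like Klf15 none of the 3 passed (edgeR adjusted p 0.216, 0.176 and 0.174). With 6 samples in 2 groups many genes can share such a profile.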

How the data were processed

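RNA was sequenced from 3 sham and 3 ischemia samples from libraries of stranded total RNA. Per gene, the authors deposited raw counts as whole numbers and FPKM with genes without reads set to 0.0001. The submitters' processing notes name STAR and HTSeq. Versions and the genome build are not given in the sources used here, so gene positions are those of the table, and whether counting used strand is not known. Reads of overlapping or near-identical genes may be misassigned.

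A gene entered the test if its FPKM averaged 0.5 or more across the 6 libraries. Ischemia was compared with sham in edgeR (quasi-likelihood, trimmed mean of M-values scaling, no covariates), two-sided, adjusted over all 13964 tested genes, at a threshold of 0.05. Standard errors were derived from the F statistic. FPKM of single genes was compared by two-sided exact permutation tests. The test was checked on simulated data. The members, the lists and the tests were chosen with earlier results of these data known. Of each list at most 4 genes with the smallest p were to be named, and F3 and the ends of ranges were named after their values were seen. Prodh was matched as Prodh1, its RefSeq synonym. Pecam1 of 7 endothelial and Col1a2 of 5 fibroblast markers were not analysed here, and 1 gene of the list restrained by Klf2 and Klf4 is not reported here, so no count or median of that list is given. Among the marker lists not described in the report, summed FPKM in sham and ischemia was 330.5 to 1125 and 171.6 to 414.0 for fibroblasts, 112.9 to 839.4 and 50.5 to 221.0 for smooth muscle, 9.52 to 11.4 and 15.7 to 20.8 for lymphocytes, 36.5 to 77.4 and 4.83 to 27.8 for epicardium. The 2 airway genes summed to 0.227 to 15.1 in sham and reached 401.0 in ischemia replicate 1. Alternatives were 2 filters, 2 scalings, DESeq2, limma on log2 FPKM with pseudocounts of 0.1 and 1, a block for replicate number and each sample left out. Ratios to marker sums were added later. The software was edgeR 4.0.16, DESeq2 1.42.0 and limma 3.58.1 under R 4.3.3, with Python 3.11.15 for tables and matplotlib 3.10.9 for plots.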

Additional observations from a re-analysis of the deposited data

How the results depend on the processing

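Klf10 kept a log2 fold change between 1.57 and 1.88 under all 14 alternatives, and Klf2, Klf4, Klf5, Klf6 and Klf15 did not change direction under any alternative that tested them. DESeq2 called 2 members higher, and 2071 genes higher and 1742 lower. Without a filter 93 genes were lower, and with total-count scaling 83. Over the fits that left out 1 sample, members called higher ranged from 0 to 2, genes called higher from 0 to 1490 and lower from 0 to 1115. The fits without sham replicate 1, 2 or 3 or ischemia replicate 3 called 0 genes, with 3020 to 3809 at an unadjusted p under 0.05. The cause was not tested. Klf9 turned to 0.051 with total-count scaling, 0.059 and 0.050 with limma at pseudocounts of 0.1 and 1, and ranged from -0.093 to 0.079 with 1 sample left out. Klf13 turned to 0.0070 without a filter, 0.13 with total-count scaling and 0.12 and 0.080 with limma, and ranged from -0.24 to 0.34. Klf3 ranged from -0.053 to 0.30 and Klf7 from -0.30 to 0.13, with 0.0038 under total-count scaling.

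With the replicate number as a block, 0 members and 0 genes passed in either direction, while 3349 genes had an unadjusted p under 0.05. Under the block Klf10 was 1.71 (edgeR adjusted p 0.0943) and Klf13 turned to 0.032. No label ties a number to a shared animal or batch, and same-numbered samples had correlations of deviations of -0.050, -0.074 and -0.19, so they share a number only.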
